A study of Mus musculus with 4 samples.

Results

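The genes described here are 38 members of the MYC network and of the machinery that builds ribosomes, out of 49671 genes in the tables. They were chosen by name for their known role, with earlier results of these data known. Of them, 37 were matched by the symbol in the files and Utp4 by its gene ID, since the files list it as Cirh1a. They comprised 5 genes of the MYC network, 7 of ribosomal DNA (rDNA) transcription, 4 nucleolar chaperones and GTPases, 6 proteins of small nucleolar ribonucleoproteins (snoRNPs), 6 factors of the small ribosomal subunit and 10 of the large subunit.

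RNA came from splenic CD3+ T cells, enriched on columns, of female F1 hybrid mice, in 4 samples labelled as biological replicates 1 to 4 of 1 group. The labels state neither the age of the mice nor whether each sample was 1 mouse. Their mothers were C57BL/6 with a heterozygous Xist deletion and their fathers Mus musculus castaneus (Castaneus). All cells received 2 antibodies that activate T cells for 48 hours, anti-CD3 fixed to the plate (1 µg/ml) and anti-CD28 in solution (10 µg/ml), together with 2.5 µM IMD-0354, an inhibitor of the kinase IKKβ that acts upstream of NF-κB. No cells without antibodies or without inhibitor were analysed here, so neither effect was tested. The comparison that the design allows for autosomal genes is between the Castaneus and the C57BL/6 allele within the same cells. In all samples the Castaneus allele came from the father, so strain and parent of origin cannot be told apart in the allelic differences below.

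As background, MYC is a transcription factor that binds the DNA motif CACGTG (the E-box) as a dimer with MAX, while MXD proteins pair with the same partner and repress. Ribosome building starts in the nucleolus, where RNA polymerase I copies rDNA into a long precursor, snoRNPs guide its chemical modification and cleavage, and assembly factors fold it into a small and a large subunit. Resting T cells make few ribosomes, and activation through the antigen receptor is known to induce Myc and many genes of this pathway.

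Allelic reads numbered 30539711 to 34992012 per replicate. All 10 T cell markers on the list had a mean of at least 8.79 RPKM (reads per kilobase of exon and per 1000000 reads), and their summed level was 473 to 517 RPKM per replicate. Summed B cell markers had 5.02 to 11.8 RPKM, NK cell markers 0.231 to 0.660 RPKM, and erythroid and platelet markers 4.25 to 11.1 RPKM. Summed myeloid markers differed more between replicates, with 98.1, 161, 56.4 and 37.2 RPKM in replicates 1 to 4, led by Lyz2 with 44.7, 74.4, 27.2 and 18.8 RPKM. The part of these other cells in the levels below was not tested, and in bulk RNA fewer cells of a type and less RNA per cell cannot be told apart.

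The promoters of 31 of the 38 members were found by symbol in RefSeq (GRCm38.p6), from 250 bases before to 50 bases after the gene start. Myc, Npm1, Fbl, Rrp12, Rrs1, Bop1 and Tcof1 were not matched. CACGTG, which reads the same on both strands, occurred in 8 of the 31, or 25.8%: Max, Mxd4, Mybbp1a, Nop2, Pes1, Utp20, Utp4 and Wdr43. A gene can have several such windows, and a match in any of them counted. The same letters occurred in 12.6% of 7659 genes with at least 1 RPKM here and in 8.09% of all 27025 genes. Counted by window, they occurred in 8 of 41 windows of the members and in 7.15% of all 32851 windows. Median GC content, from the window with the highest value in each gene, was 61.0% in the members. It was 62.3% in the genes with at least 1 RPKM. A match is a description of the letters in this window and not a measured binding site. Of the 8, the 4 with the highest expression are shown, since they place the MYC and MAX motif in a gene of the network itself, in a factor of rDNA transcription and in an early factor of each subunit; capitals mark CACGTG. They lie at chr12:76962199-76962498 on the minus strand (Max), and on the plus strand at chr11:72441077-72441376 (Mybbp1a), chr17:71615965-71616264 (Wdr43) and chr11:3963725-3964024 (Pes1).
Max: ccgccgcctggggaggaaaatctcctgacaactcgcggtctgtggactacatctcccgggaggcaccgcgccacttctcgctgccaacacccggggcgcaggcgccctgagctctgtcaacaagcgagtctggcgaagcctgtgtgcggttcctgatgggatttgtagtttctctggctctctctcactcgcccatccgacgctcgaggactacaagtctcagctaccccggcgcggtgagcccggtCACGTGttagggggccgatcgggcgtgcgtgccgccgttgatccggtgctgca
Mybbp1a: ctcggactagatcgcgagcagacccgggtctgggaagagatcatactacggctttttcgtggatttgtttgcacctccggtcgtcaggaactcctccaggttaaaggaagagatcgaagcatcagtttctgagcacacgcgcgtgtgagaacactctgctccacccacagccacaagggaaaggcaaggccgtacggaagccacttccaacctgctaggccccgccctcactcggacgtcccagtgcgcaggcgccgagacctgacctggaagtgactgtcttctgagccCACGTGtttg
Wdr43: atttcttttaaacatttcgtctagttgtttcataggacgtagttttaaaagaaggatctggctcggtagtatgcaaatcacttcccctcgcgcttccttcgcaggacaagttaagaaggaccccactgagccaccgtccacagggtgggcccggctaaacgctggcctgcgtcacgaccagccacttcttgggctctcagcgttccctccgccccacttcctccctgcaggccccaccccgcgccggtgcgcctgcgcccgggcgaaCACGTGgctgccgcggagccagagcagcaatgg
Pes1: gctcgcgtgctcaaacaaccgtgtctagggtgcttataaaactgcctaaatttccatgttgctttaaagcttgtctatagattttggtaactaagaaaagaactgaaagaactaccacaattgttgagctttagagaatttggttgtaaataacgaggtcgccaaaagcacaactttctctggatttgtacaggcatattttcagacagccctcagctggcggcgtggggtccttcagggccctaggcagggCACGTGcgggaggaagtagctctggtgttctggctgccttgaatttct
The first base of the motif lay at -3 from the start in Max, at 2 in Pes1, at 17 in Wdr43 and at 40 in Mybbp1a. It lay at 15 in Utp4, at 37 in Utp20, at -60 in Nop2 and at -219 in Mxd4. The window ends 50 bases after the start, so a match after the start could not lie further away.

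All 38 members had at least 1 RPKM in every replicate. Their median level was 13.6 RPKM, against 6.72 RPKM for 11453 genes with at least 1 RPKM and 3.06 RPKM for 16751 genes with at least 0.1 RPKM. Of the members, 37 stood above 3.06 RPKM and 10 (26.3%) were in the top 10% of those 16751 genes, which began at 23.5 RPKM. RPKM divides by the length of all annotated exons of a gene together, and with the shortest annotated consensus coding transcript as length 6 members were in the top 10%.

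**Figure D1:**
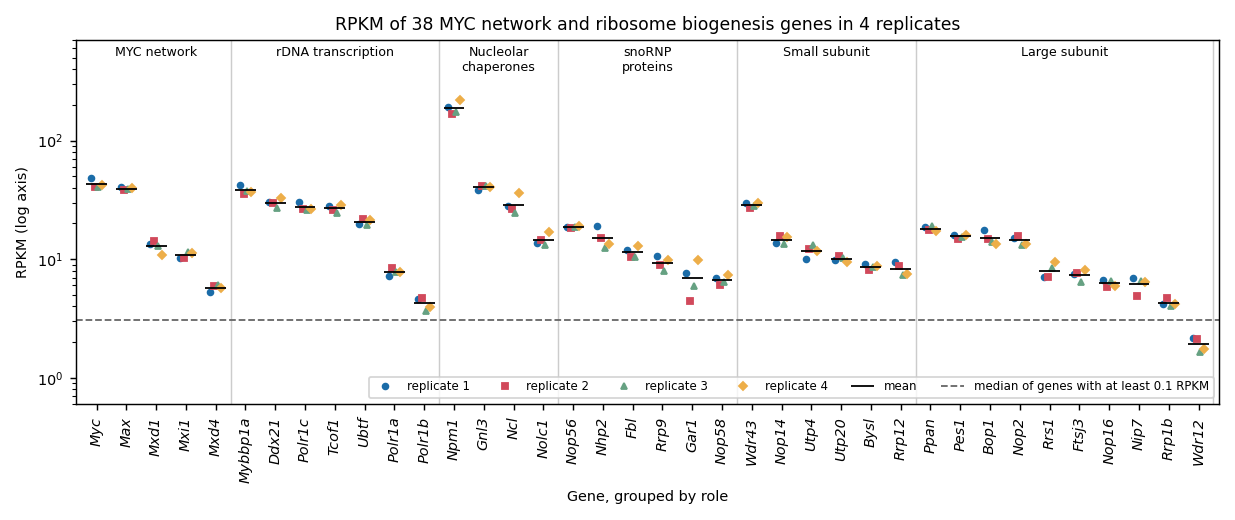
RPKM (log axis) of the 38 genes by role, with a point for each of the 4 replicates and a bar for their mean; the dashed line is the median of genes with at least 0.1 RPKM, 3.06. Npm1 stands highest at 188 RPKM and Wdr12, below the line, lowest at 1.92 RPKM.

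In the MYC network, Myc (ENSMUSG00000022346, chr15:61985391-61990374) had 48.2, 40.9, 41.0 and 42.6 RPKM in replicates 1 to 4, or 43.2 ± 3.44 RPKM (SD, n = 4). Its obligate partner Max had 41.0, 38.6, 38.7 and 39.5 RPKM. Both stood in the top 5 of the members, and Max varied little between replicates, with a coefficient of variation (CV, SD over mean) of 2.75%. The repressor partners had lower RPKM. Mxd1 had 13.5, 14.1, 12.9 and 10.9 RPKM, Mxi1 10.2, 10.2, 11.4 and 11.3 RPKM, and Mxd4 5.25, 5.90, 6.09 and 5.75 RPKM. On this scale the 3 ranges did not overlap with those of Myc and Max. Per length of the shortest coding transcript, Mxd1 and Mxd4 stayed below both, whereas Mxi1 had 88.2 ± 5.76, against 86.1 ± 6.86 for Myc and 73.7 ± 2.03 for Max (SD, n = 4 each).

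The ratio of Myc to Max within a replicate was 1.09 ± 0.0565 (SD, n = 4), and 1.17 per length of the shortest coding transcript. Myc over the sum of Mxd1, Mxd4 and Mxi1 was 1.67, 1.36, 1.35 and 1.52 in replicates 1 to 4, or 1.47 ± 0.153. That ratio was 0.718 ± 0.0812 per length of the shortest coding transcript. All 4 replicates were above 1 under the first length and below 1 under the second, so which side is more abundant depends on the length chosen.

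**Figure D2:**
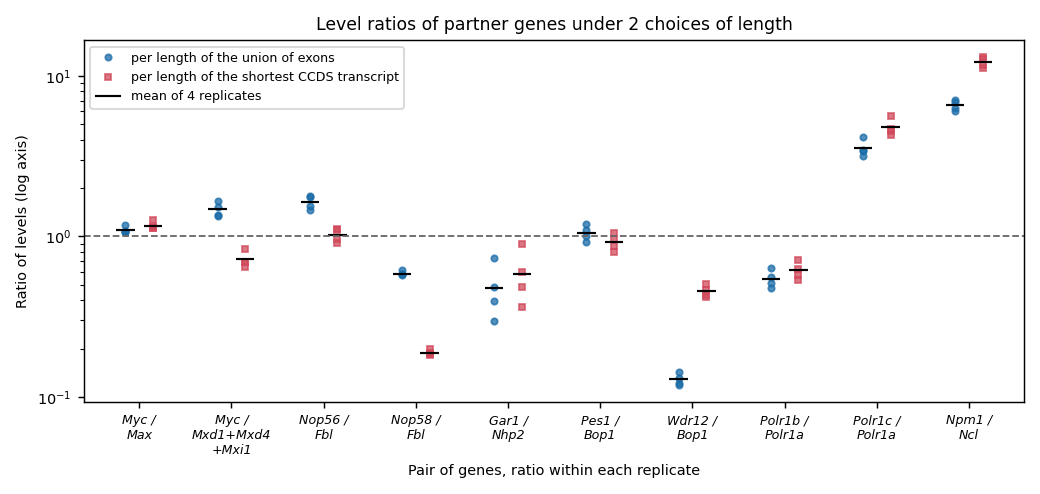
Ratio of the levels (log axis) of partner genes within each replicate, with points for 4 replicates, a bar for their mean, and 2 choices of gene length; the dashed line is a ratio of 1. Myc over Max is 1.09 and 1.17 under the 2 lengths, while Myc over the summed MXD genes is 1.47 under one and 0.718 under the other.

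Among the genes of rDNA transcription, Mybbp1a, a nucleolar regulator of RNA polymerase I transcription and precursor processing, had 42.2, 35.2, 37.7 and 36.7 RPKM. The helicase Ddx21 had 30.0 ± 2.50 RPKM and Tcof1 (treacle), which supports rDNA transcription, 26.8 ± 1.80 RPKM (SD, n = 4 each). Ubtf, which binds rDNA promoters as upstream binding factor, had 20.6 ± 1.10 RPKM. Mybbp1a was above Ddx21 in every replicate under either length. Tcof1 was above Ubtf in every replicate by RPKM, but per length of the shortest coding transcript it was below, at 31.2 ± 2.09, against 48.8 ± 2.61 for Ubtf (SD, n = 4 each). The polymerase subunits spanned a wider range. Polr1c, shared with RNA polymerase III, had 30.3, 26.7, 26.1 and 26.7 RPKM, with replicate 1 apart from the others. The largest subunit Polr1a had 7.81 ± 0.492 RPKM and the second-largest, Polr1b, had 4.59, 4.71, 3.65 and 3.98 RPKM. Polr1c over Polr1a was 3.54 and Polr1b over Polr1a 0.543, and these ratios were 4.76 and 0.612 per length of the shortest coding transcript, so their order held under either length.

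Npm1 (nucleophosmin, a histone and ribosome chaperone of the nucleolus) had 191, 167, 174 and 219 RPKM, the highest level of the 38 in every replicate. Npm1 is known to have near-identical processed copies in the genome, and reads shared with them could not be separated here, so its level and its allelic ratio are uncertain. Gnl3 (nucleostemin, a nucleolar GTPase) had 38.4, 41.1, 41.6 and 40.8 RPKM. Ncl (nucleolin) had 27.9, 26.6, 24.7 and 36.3 RPKM, highest in replicate 4. Nolc1, a chaperone of snoRNPs, had 13.6, 14.6, 13.3 and 16.9 RPKM, also highest in replicate 4.

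The snoRNP proteins form 2 classes. In the box C/D class, which methylates ribosomal RNA, the core protein Nop56 had 18.6, 18.4, 18.7 and 19.0 RPKM, the lowest CV of the 38 at 1.42%. The methyltransferase Fbl (fibrillarin) had 11.5 ± 1.24 RPKM and Nop58, the partner of Nop56, 6.73 ± 0.603 RPKM (SD, n = 4 each). Nop56 over Fbl was 1.64 by RPKM. Per length of the shortest coding transcript it was 0.959, 1.09, 1.10 and 0.910 in replicates 1 to 4, so the order of these 2 depended on the length. Rrp9, a protein of the U3 snoRNP, had 10.6, 8.92, 7.88 and 9.80 RPKM. In the H/ACA class, which converts uridine to pseudouridine, Nhp2 had 19.2, 15.0, 12.3 and 13.4 RPKM and Gar1 had 7.60, 4.43, 6.00 and 9.79 RPKM. These were the members with the 2 highest CVs, 20.1% and 32.9%, and they did not move together: Nhp2 was highest in replicate 1 and Gar1 in replicate 4. Their ratio, Gar1 over Nhp2, was 0.476 ± 0.185 (SD, n = 4).

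Of the small subunit factors, Wdr43, an early factor of the processome that assembles on the precursor, was highest at 28.6 ± 1.29 RPKM. Nop14 had 14.5 ± 1.17 RPKM, Utp4 11.8 ± 1.28 RPKM, Utp20 10.0 ± 0.553 RPKM, Bysl 8.65 ± 0.441 RPKM and Rrp12 8.28 ± 1.06 RPKM (SD, n = 4 each). They differed by less than their spread in part, since the ranges of Utp4 and Utp20 overlapped, as did those of Bysl and Rrp12.

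The large subunit factors were the lowest role group, with a median of 7.70 RPKM. Ppan, a factor of precursor processing, led with 18.1 ± 0.786 RPKM and stood above Pes1 (15.5 ± 0.540 RPKM) in every replicate. Pes1, Bop1 and Wdr12 form 1 complex, in which Wdr12 had the lowest level. Bop1 had 14.9 ± 1.83 RPKM, and Pes1 over Bop1 was 1.05 ± 0.120 (SD, n = 4 each). That ratio was 0.915, 0.998, 1.09 and 1.19 in replicates 1 to 4, on both sides of 1. Wdr12 had 2.15, 2.13, 1.65 and 1.74 RPKM, or 0.129 of Bop1. The exons of Wdr12 sum to 11955 bases, against 2850 bases of its shortest coding transcript, and per that length Wdr12 was at 0.454 of Bop1. Wdr12 was below Bop1 under either length.

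Nop2, a methyltransferase of ribosomal RNA, had 14.4 ± 1.21 RPKM, Ftsj3, another methyltransferase, 7.40 ± 0.659 RPKM, and Nop16 6.27 ± 0.443 RPKM (SD, n = 4 each). Rrs1, a factor of large subunit assembly, had 7.08, 7.14, 8.35 and 9.40 RPKM, and Nip7 had 6.91, 4.86, 6.52 and 6.44 RPKM. Rrp1b had 4.20, 4.68, 3.99 and 4.21 RPKM. Replicate 2 was lowest for Nip7 and highest for Rrp1b.

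Ordered by mean RPKM, the 38 genes gave 37 neighbouring pairs, of which 30 overlapped in range and 7 did not. The 7 steps were Npm1 above Myc, Mybbp1a above Ddx21, Tcof1 above Ubtf, Ubtf above Nop56, Ppan above Pes1, Mxd4 above Rrp1b, and Polr1b above Wdr12. Per length of the shortest coding transcript 5 of the 7 held without overlap and 2 turned round without overlap, Tcof1 with Ubtf and Polr1b with Wdr12, with Polr1b at 6.15 and Wdr12 at 8.05. The median CV of the members was 8.21%, against 10.4% for 9627 genes in the same RPKM range. Of the members, 13 were highest in replicate 1 and 12 in replicate 4, while 14 were lowest in replicate 2 and 15 in replicate 3. The median log2 of a member over its own mean was 0.050, -0.027, -0.074 and 0.016 in replicates 1 to 4. Over genes with at least 1 RPKM it was -0.053, 0.065, -0.038 and 0.0039. Replicate 2 also had the highest summed myeloid markers and replicate 4 the lowest. The part of these markers in the differences between replicates was not tested.

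Some of these genes are hosts of snoRNAs, the guide RNAs of the snoRNPs. The annotation places 20 snoRNA genes in 6 members: 5 in Nop56, 4 in Nop58, 3 each in Gnl3, Ncl and Wdr43, and 2 in Ppan. The 8 that lie outside the host's annotated exons had 1.22 to 23.6 RPKM, with Snord53 in Wdr43 highest. All 8 lie on the strand of the host, and whether their reads came from the snoRNA or from unspliced host RNA was not tested. Of the 12 that overlap an annotated exon of the host, 9 were listed at 0 RPKM, and the other 3, all in Gnl3, had 3.74 to 12.4 RPKM. The rule by which reads in overlapping genes were assigned is not known here. Exons of 15 members overlap those of a gene on the other strand, by at most 9.37% of the member's exon length (Bysl).

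The share of allelic reads from the Castaneus allele was then compared with that from C57BL/6. Lower and higher below mean the Castaneus allele relative to the C57BL/6 allele of the same gene. Whether the mapping of reads or their assignment to an allele favoured 1 allele was not tested. Of the 38 members, 10 (26.3%) passed edgeR's quasi-likelihood test with Benjamini-Hochberg adjustment over 10268 autosomal genes at an FDR of 5%, and of all 10268 genes 28.1% passed. Castaneus was lower in 9 members (23.7%) and higher in 1 (2.63%), against 15.6% and 12.4% of all tested genes. The split depended on scaling. It was 8 lower and 3 higher with TMM factors and 9 lower and 4 higher with DESeq2. The split of all 10268 genes moved as well, with 1605 lower and 1278 higher as reported, 1352 and 1481 with TMM, and 1883 and 1930 with DESeq2. The median log2 ratio was -0.10 in the members and -0.04 in all tested genes. The share of members called in either direction was close to that of all genes. At an unadjusted p under 0.05, 13 members (34.2%) passed, against 38.002% of all tested genes.

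**Figure D3:**
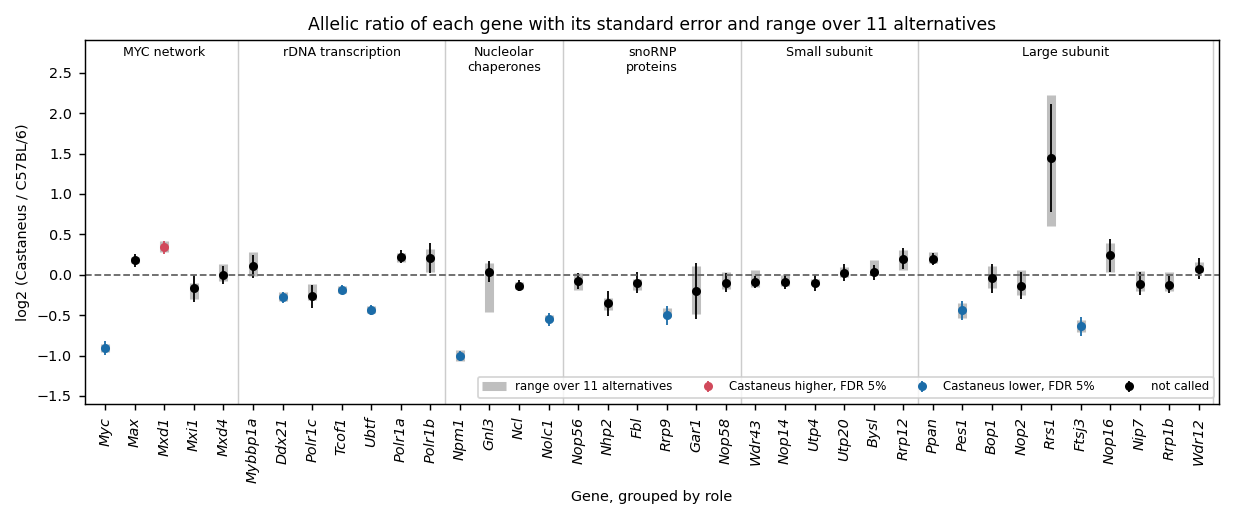
Log2 ratio of the Castaneus to the C57BL/6 allele for the 38 genes by role; points are the edgeR estimates with their standard error, coloured by call, and grey bars the range over 11 alternative settings. Npm1 (-1.01) and Myc (-0.91) lie lowest among the 9 called lower, Mxd1 (0.34) is called higher, and Rrs1 (1.44) has the widest standard error.

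Myc had 1515, 1029, 1188 and 1077 Castaneus reads in replicates 1 to 4, against 2578, 1967, 2321 and 2238 C57BL/6 reads. Castaneus made up 37.0%, 34.3%, 33.9% and 32.5%, below 50% in each replicate. The log2 ratio was -0.91 ± 0.08 (SE; edgeR quasi-likelihood, adjusted p = 1.29e-05). Mxd1 (chr6:86647042-86669161), one of the repressor partners, went the other way. It had 2931, 2310, 2879 and 2202 Castaneus reads, against 2091, 2197, 2241 and 1727 C57BL/6 reads, so that Castaneus made up 58.4%, 51.3%, 56.2% and 56.0%. Its log2 ratio was 0.34 ± 0.08 (edgeR quasi-likelihood, adjusted p = 0.00881), and it missed the threshold with no replicate block (adjusted p = 0.0581) or with replicate 1 left out (adjusted p = 0.0631).

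The other network genes did not pass. Max had Castaneus shares of 50.4%, 52.7%, 54.1% and 53.4%, above 50% in each replicate, with an edgeR log2 ratio of 0.18 ± 0.08 (adjusted p = 0.154); it passed with DESeq2 (adjusted p = 0.0155). Mxi1 had shares of 43.3%, 43.6%, 53.3% and 46.5%, and Mxd4 51.1%, 53.3%, 42.8% and 51.1%. Both crossed 50%.

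In rDNA transcription, 3 of 7 members were lower and none was higher. For this and the role groups below, the share over all tested genes was 15.6% lower and 12.4% higher. Ubtf (chr11:102304560-102319742) had Castaneus shares of 41.3%, 42.5%, 43.0% and 42.0%, with an edgeR log2 ratio of -0.43 ± 0.06 (adjusted p = 0.000397). Ddx21 (chr10:62580251-62602281) had 45.4%, 43.7%, 42.9% and 47.1%, a log2 ratio of -0.28 ± 0.06 (edgeR, adjusted p = 0.00752). Tcof1 (chr18:60813755-60848971), the member with the most allelic reads, had 48.8%, 45.3%, 46.2% and 45.3%, a log2 ratio of -0.18 ± 0.05 (edgeR, adjusted p = 0.0242). All 3 were below 50% in every replicate. Ubtf held its call under all 11 alternatives, whereas the Tcof1 call was lost under 5 of them, with TMM (adjusted p = 0.0816), with totals of its own chromosome (0.0577), without the replicate block (0.207), without replicate 3 (0.0847) and without replicate 4 (0.117). Ddx21 missed the threshold with no replicate block (adjusted p = 0.0521) or with replicate 3 left out (adjusted p = 0.0511).

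Polr1a, not called, had shares of 51.3%, 52.1%, 56.5% and 53.8% (edgeR log2 ratio 0.22 ± 0.08, adjusted p = 0.0649), and passed with TMM, with DESeq2 and without replicate 2. Polr1b, Polr1c and Mybbp1a had adjusted p of 0.470, 0.205 and 0.637 in edgeR's test. Mybbp1a ranged over 57.9%, 53.8%, 42.4% and 51.7%, on either side of 50%.

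Of the nucleolar chaperones, 2 of 4 were lower. Npm1 (chr11:33152287-33163206) had 2895, 2656, 3310 and 3767 Castaneus reads, against 6846, 5263, 6785 and 6799 C57BL/6 reads. Castaneus made up 29.7%, 33.5%, 32.8% and 35.7%, and the log2 ratio was -1.01 ± 0.07 (edgeR quasi-likelihood, adjusted p = 1.02e-06), the lowest of the 38 genes. Nolc1 (chr19:46075863-46085530) had shares of 40.3%, 41.0%, 39.7% and 39.6% and a log2 ratio of -0.55 ± 0.08 (edgeR, adjusted p = 0.000349). Ncl was at 47.1%, 47.2%, 49.3% and 45.4% and did not pass (edgeR, adjusted p = 0.201). Gnl3 had shares of 44.8%, 56.7%, 44.5% and 55.0%, with 2 replicates on each side of 50%. Its edgeR log2 ratio was 0.04 ± 0.13 (adjusted p = 0.862) and turned to -0.46 (adjusted p = 0.0233) when scaled by the totals of chromosome 14, where Castaneus made up 58.1% of reads.

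The snoRNP genes included 1 lower member of 6. Rrp9 (chr9:106475963-106485424) had Castaneus shares of 40.7%, 42.2%, 39.7% and 41.4%, with an edgeR log2 ratio of -0.50 ± 0.12 (adjusted p = 0.00803), a call that ended with no replicate block (adjusted p = 0.0562) or with replicate 4 left out (adjusted p = 0.0502). Nhp2 was below 50% in every replicate at 47.3%, 42.5%, 43.8% and 40.2% and did not pass (edgeR, adjusted p = 0.111). Gar1, with the fewest allelic reads of the members, 223 to 434 per replicate, ranged over 48.2%, 45.7%, 30.5% and 60.7%, and a difference between its alleles was not detectable at this depth and spread. Fbl, Nop56 and Nop58 had shares on both sides of 50% and adjusted p of 0.586 to 0.623 in edgeR's test. None of the 6 small subunit members passed, 0 at an unadjusted p under 0.05 and none with DESeq2, and their mean shares were 47.8% to 53.0%. Nop14 had shares of 50.7%, 46.9%, 47.2% and 47.3%, replicate 1 apart from the rest.

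Of the 10 large subunit members, 2 were lower. Ftsj3 (chr11:106249142-106256079) had Castaneus shares of 42.0%, 36.1%, 35.0% and 41.9%, with an edgeR log2 ratio of -0.64 ± 0.12 (adjusted p = 0.00188). Pes1 (chr11:3963975-3980004) had 37.8%, 38.9%, 47.0% and 44.6%, a log2 ratio of -0.44 ± 0.12 (edgeR, adjusted p = 0.0192). With replicate 1 left out the adjusted p of Pes1 was 0.116, and with replicate 4 left out it was 0.0553, and the call was lost both times. Its complex partners Bop1 and Wdr12 had log2 ratios of -0.04 ± 0.18 and 0.07 ± 0.13 (edgeR, adjusted p = 0.884 and 0.722). Whether Pes1 differed from them was not tested. Ppan was above 50% in every replicate, at 53.6%, 50.5%, 55.2% and 52.5% (edgeR log2 ratio 0.19 ± 0.07, adjusted p = 0.0723), and passed with TMM, with DESeq2, with totals of its own chromosome and without replicate 2. Nop2, Nop16, Nip7 and Rrp1b had shares on both sides of 50% or at it, with adjusted p of 0.423 to 0.619 in edgeR's test.

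Npm1, Ubtf, Ftsj3 and Pes1 all lie on chromosome 11, where 4 of 6 members were lower and 132 of 856 tested genes (15.4%) were. Castaneus made up 50.3% of the allelic reads of that chromosome. Over all 38 genes, Castaneus was below 50% in every replicate for 13, above it for 4 and on both sides for 21. Among all tested genes, 27.8% were below and 18.2% above in every replicate.

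**Figure D4:**
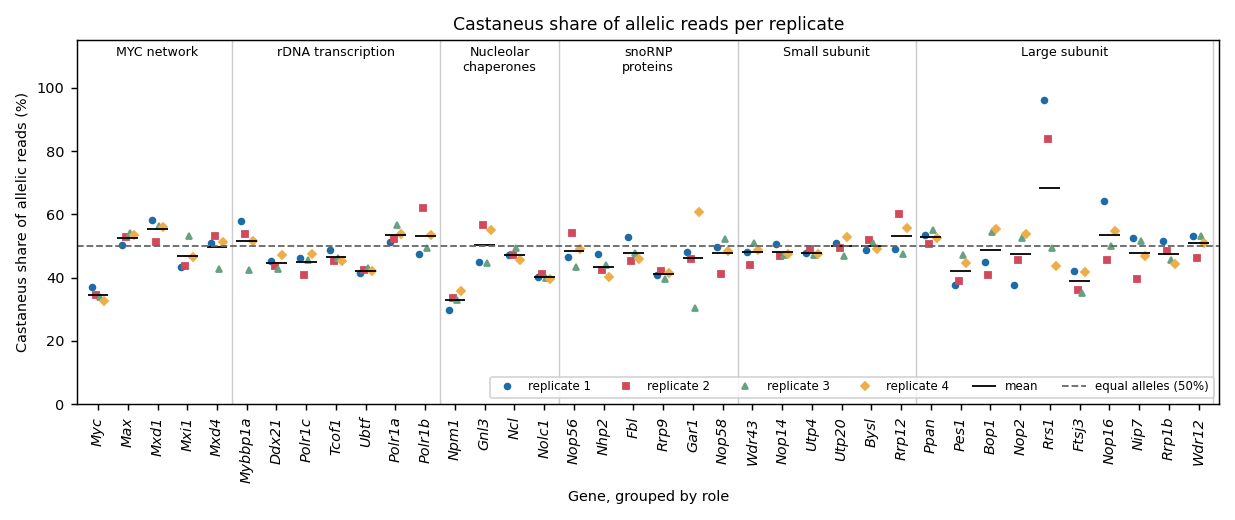
Castaneus share of allelic reads (%) of the 38 genes by role, with a point for each of the 4 replicates and a bar for their mean; the dashed line is 50%. Npm1 and Myc lie between 29.7% and 37.0%, and Rrs1 spans 43.8% to 96.1%.

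Rrs1 (chr1:9545408-9547455) varied between the replicates more than any other member. It had 940, 614, 646 and 542 Castaneus reads in replicates 1 to 4, against 38, 118, 664 and 695 C57BL/6 reads, which gave Castaneus shares of 96.1%, 83.9%, 49.3% and 43.8%. Most Rrs1 reads of replicates 1 and 2 came from Castaneus, and those of replicates 3 and 4 came in about equal parts from each allele. The edgeR log2 ratio was 1.44 ± 0.67 (adjusted p = 0.143), and it passed without replicate 4 (adjusted p = 0.0490) and with no minimum on low values (adjusted p = 1.38e-05). Rrs1 of both alleles together was at 7.08 and 7.14 RPKM in replicates 1 and 2, below the 8.35 and 9.40 RPKM of replicates 3 and 4.

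The 6 genes within 500 kb of Rrs1 with at least 200 allelic reads were looked at after its values were seen. Vcpip1 had the same pattern of shares, 86.6%, 86.6%, 55.1% and 43.2%, and Snhg6 had 62.5%, 71.4%, 39.3% and 33.0%. Mybl1, which lies between Rrs1 and Vcpip1, did not share it, with 59.0%, 50%, 53.9% and 53.3%. Sgk3 had 46.8%, 56.9%, 50.6% and 25.5%, lowest in replicate 4. Cops5 had 51.2%, 56.98%, 47.4% and 47.4%, and Cspp1 49.5%, 49.6%, 48.5% and 51.4%, so that 1 of the 6 neighbours, Vcpip1, was above 80% in replicates 1 and 2. Among 7481 autosomal genes with at least 500 allelic reads, 15 (0.201%) had an SD of the share above 20 points, and 14 of the 15 lie on chromosome 1. Rrs1 was the 1 member among them, of 37 with that depth. Why the replicates differed was not tested.

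**Figure D5:**
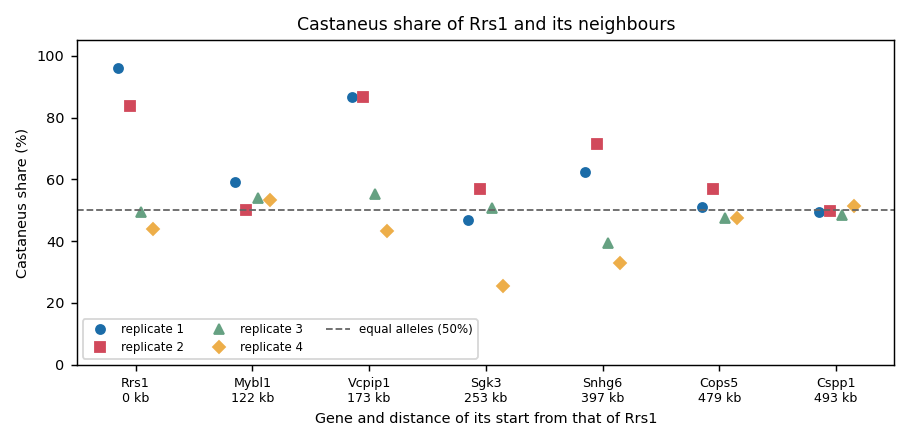
Castaneus share of allelic reads (%) of Rrs1 and 6 neighbours ordered by the distance of their start from that of Rrs1, with a point for each of the 4 replicates; the dashed line is 50%. Rrs1 and Vcpip1 are above 80% in replicates 1 and 2 and between 43.2% and 55.1% in replicates 3 and 4, while Cspp1 stays between 48.5% and 51.4%.

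The members were set beside the other genes of the pathway, listed by role. Of 125 tested, 14 were higher and 13 lower by edgeR's test, where 12.4% of all 10268 tested genes were higher and 15.6% lower. In the MYC network 4 of 10 were higher and 1 lower, in rDNA transcription 2 of 17 and 1, among snoRNP proteins 0 of 8 and 1, in the small subunit 4 of 47 and 6, and in the large subunit 4 of 43 and 4. These small counts moved with the samples used. The 2 higher genes of rDNA transcription became 0 without replicate 1, 3 or 4 and 1 with no replicate block, and the 1 lower MYC network gene, Mlxip, was not called with TMM, with own-chromosome totals, with no RPKM minimum, with no replicate block or with any replicate left out. The median log2 ratios of these 5 lists, in the same order, were 0.17, 0.05, 0.0056, -0.11 and 0.0056. Among the snoRNP proteins, 1 passed at FDR 5% and it was Snu13, the protein that nucleates box C/D particles, with shares of 27.2%, 26.2%, 30.8% and 39.1% and a log2 ratio of -1.15 ± 0.20 (edgeR, adjusted p = 0.00138). The largest ratios above 0 were those of Wdr46 (log2 1.08 ± 0.09, adjusted p = 6.34e-06), Polr2l (1.03 ± 0.28, 0.0172), Nsa2 (1.01 ± 0.06, 7.57e-07), Mphosph10 (0.84 ± 0.12, 0.000335) and Zbtb17 (0.72 ± 0.13, 0.00222), all by edgeR's test. The Polr2l call was lost with replicate 1, 3 or 4 left out (adjusted p = 0.0709, 0.0776 and 0.0788). Zbtb17 (Miz-1) is a partner through which MYC represses, and Wdr46, Nsa2 and Mphosph10 are assembly factors. On the lower side, Rbm28 had a log2 ratio of -0.92 ± 0.09 (adjusted p = 1.76e-05) and Polr2h, a subunit shared by the RNA polymerases, -0.64 ± 0.14 (adjusted p = 0.00664), both by edgeR's test.

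Dkc1, the pseudouridine synthase that works with Nhp2 and Gar1, lies on the X chromosome, and at a mean of 0.661 of Nhp2 its level per exon length lay between those of the 2 members. In this cross the Castaneus X is the inactive X, and the shares of X-linked genes are described here without a test. Dkc1 had 0 Castaneus reads of 4943 in the 4 replicates together, which allows a share of up to 0.0607% for counting error only. The 6 X-linked genes of the pathway lists are outside the autosomal test, and Tsr2, Gnl3l and Ftsj1 also had 0 Castaneus reads. Las1l had 4 of 7794 reads from Castaneus. Utp14a, a factor of the small subunit, differed from these with 688 of 13405 reads and shares of 4.09%, 2.44%, 6.58% and 6.43%.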

How the data were processed

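RNA was sequenced from 4 replicates of 1 group, in stranded total RNA libraries with ribosomal RNA removed, per the labels. The authors deposited whole-number counts of reads per gene and allele, not normalized per the file headers, and RPKM of both alleles together, scaled by the authors. The submitters' processing notes name STAR 2.7.1a, featureCounts and mm10. The sources used here do not state the allele assignment, duplicate removal or strand setting. RPKM times the summed exon length (GENCODE M21) gave whole reads, within 0.05 reads, for 89.0% to 89.9% of values under 2000 reads, at scaling totals of 95394533 to 114374063 reads. Of the 38 members, 28 came out whole in all 4 replicates, and Ddx21, Bop1, Nolc1, Utp20 and Rrp1b in none. Max, Mxi1 and Wdr43 came out whole in 1 replicate. For members that did not come out whole, recovered reads and levels per shortest coding transcript are less certain.

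Members and lists were chosen with earlier results of these data known. Allele counts per replicate went into edgeR 4.0.16 (glmQLFit, glmQLFTest; R 4.3.3) with an allele term and the replicate as a block, because both alleles come from 1 library. Autosomal totals per allele served as library sizes, with Castaneus at 49.6% ± 0.0870 (SD, n = 4). Tests were two-sided against a ratio of 1, with Benjamini-Hochberg adjustment over 10268 autosomal genes with a mean of at least 20 allelic reads and 1 RPKM. The labels call the replicates biological, so p-values rest on the spread between these samples. The fit takes the spread of a gene partly from that of all genes fitted, so it is not the gene's own spread alone. Members had 223 to 12798 allelic reads per replicate, a median of 41.2% of their recovered reads. Alternatives were TMM, DESeq2 1.42.0, totals of the gene's chromosome, other filters, no block, leaving out each replicate and, added after seeing the data, another gene length. The test was run on simulated counts whose spread followed the trend over all genes. That check cannot speak for genes with a larger spread of their own, such as Rrs1. Values in every replicate are given for the MYC network, called members, the 5 highest, the 5 lowest and the 5 most variable members by RPKM, and members with an outlying replicate. Levels are means of RPKM, without a pseudocount. Python 3.11.15, numpy 2.4.6, pandas 2.3.3 and matplotlib 3.10.9 were used.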

Additional observations from a re-analysis of the deposited data

Results flagged for a closer look

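In 2 of 76 groups of 4 values (RPKM and Castaneus share of the 38 genes), 1 replicate stood apart from the other 3 by Dixon's 95% limit, which chance passes in about 1 of 20 groups. Nop14 had a Castaneus share of 50.7% in replicate 1, where the nearest other replicate had 47.3%. Polr1c had 30.3 RPKM in replicate 1, where the nearest other replicate had 26.7 RPKM.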

How the results depend on the processing

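The calls of Npm1, Myc, Ftsj3, Nolc1 and Ubtf held under all 11 alternatives, and no called member changed sign in any. The count of higher members, 1 as reported, was 3 with TMM, 4 with DESeq2, 2 with totals of the gene's chromosome, 2 with no minimum on low values, 0 with no replicate block and 0 to 3 leaving out a replicate; the 9 lower members were 6 without the block and 6 to 9 leaving out a replicate. Over autosomal genes the block's removal gave 962 higher and 1138 lower, DESeq2 gave 1930 higher, and leaving out a replicate gave 913 to 1347 higher and 1034 to 1728 lower, the lowest without replicate 4. The 14 higher and 13 lower other pathway genes became 23 higher with DESeq2, 7 lower without the block, and 8 to 15 higher and 5 to 12 lower leaving out a replicate. Median RPKM of the members was 40.1 when each replicate was scaled to a sum of 1000000 and 18.01 with the shortest coding transcript as length, a length chosen after seeing the data. The 10 members in the top 10% of genes were 27 with no filter, 5 among genes with at least 1 RPKM and 6 with that length, which also turned the log2 of Myc over the MXD genes to -0.48. The median CV was 8.80% after scaling and 7.72% to 8.001% leaving out a replicate. Ratios of uncalled members changed sign in 20 cases. They were Mxd4 (0.047) and Bop1 (0.0038) with TMM, Mxd4 (0.041) with DESeq2, and with own-chromosome totals Gnl3 (-0.46), Mxd4 (0.081), Rrp1b (0.030) and Wdr43 (0.062). The other changes of sign came from leaving out 1 replicate, where the log2 ratio ranged from -0.076 to 0.13 in Mxd4, -0.19 to 0.016 in Nop56, -0.18 to 0.030 in Nop58, -0.26 to 0.054 in Nop2, -0.48 to 0.11 in Gar1, -0.17 to 0.10 in Bop1, -0.029 to 0.089 in Utp20, -0.21 to 0.044 in Nip7, -0.019 to 0.28 in Mybbp1a, -0.090 to 0.15 in Gnl3 and -0.0067 to 0.056 in Bysl. Of the member ratios under each alternative, 375 kept sign and side, 10 became calls with the same sign and 13 lost theirs. Among the changes of sign, Gnl3 with own-chromosome totals also became a call (edgeR, adjusted p = 0.0233). The causes were not tested. Gar1 had the fewest allelic reads of the members, a mean of 316.75, and its share also had an SD of 12.4 points between replicates.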

Other observations

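Genes of growth and metabolism that are known MYC targets, a list outside the pathway above, included 34 tested genes, of which 4 were higher and 8 lower from Castaneus by edgeR's test, where 12.4% of all tested genes were higher and 15.6% lower. The lower count was 3 with TMM (5 higher), 2 with no replicate block (3 higher) and 3 to 9 with a replicate left out, the lowest without replicate 4, and 4 without replicate 1 or 3. Their median level was 18.1 RPKM and their median log2 ratio -0.13, against -0.04 for all tested genes. Odc1, the rate-limiting enzyme of polyamine synthesis, had Castaneus shares of 24.4%, 23.2%, 26.2% and 25.0% in replicates 1 to 4 and a log2 ratio of -1.59 ± 0.07 (edgeR, adjusted p = 6.86e-08). Eif4a1, the helicase of translation initiation, had 33.5%, 26.4%, 35.8% and 30.6%, a log2 ratio of -1.10 ± 0.15 (edgeR, adjusted p = 0.000272). In both genes every replicate was below 50%.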
